A study of Homo sapiens with 6 samples.

Results

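The unfolded protein response and the integrated stress response were described through 35 genes in xenograft tumors of the human melanoma cell line WM983-B. The genes were taken by name, from what they are known to do, and were chosen with earlier results of these data known. They comprise 5 sensors and transcription factors, 14 chaperones and folding enzymes of the endoplasmic reticulum (ER), 4 genes of ER-associated degradation and 12 targets of the transcription factor ATF4. All 35 were found among the 60617 gene identifiers of the files, and all 35 passed the filter on low counts that left 20423 genes for testing.

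RNA of 6 tumors was sequenced: 3 from animals given anle138b systemically and 3 from animals without treatment. Anle138b, a diphenyl-pyrazole compound, binds α-synuclein, a protein that aggregates, in its oligomeric form. The sources used here do not give dose, duration, the host strain or whether controls received a vehicle, and all tumors stem from 1 cell line. The sample titles take 2 forms. Anle138b tumors 1 and 2 and untreated tumors 1 and 2 share one form, here the 4-library set, and anle138b tumor 3 and untreated tumor 3 share the other, here the 2-library set. What the forms stand for was not given, so the set was a term in the fit reported here, and fits without it were alternatives.

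Each library held 12400782 to 27599159 counts, with the 2 deepest libraries making up the 2-library set. Levels below are CPM, that is counts relative to the depth of each library after TMM scaling, and 3 counts stood for 0.106 to 0.24 CPM depending on the library. Melanoma and melanocyte markers summed to 14200 to 19200 CPM over 11 genes. Of markers of other cells, 13 fibroblast and pericyte genes summed to 451 to 896 CPM, 14 skeletal muscle genes to 274 to 474 CPM, 10 endothelial genes to 32.3 to 44 CPM, 10 myeloid genes to 25.9 to 52.4 CPM, 8 keratinocyte genes to 17.4 to 26.1 CPM and 8 plasma and B cell genes to 2.44 to 12.9 CPM. TTN made up most of the skeletal muscle sum, at 198 to 332 CPM. All of these muscle genes but ACTN2 and MB were highest in anle138b tumor 2. There CKM measured 10.5 CPM and TNNT3 6.15 CPM, against at most 0.467 and 0.212 CPM in any other tumor. The part of this in the members' values was not tested. No marker was at 0 in all tumors, and how mouse reads were handled was not given. In such bulk samples, fewer cells of a type and less RNA per cell cannot be told apart.

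The ER folds secreted and membrane proteins, and unfolded protein there is sensed by ATF6, IRE1 (the product of ERN1) and PERK (the product of EIF2AK3). ATF6 is cleaved to release a transcription factor, IRE1 splices the XBP1 messenger RNA, and PERK phosphorylates the translation factor eIF2α, which slows most translation while that of ATF4 goes up. Other eIF2α kinases that respond to amino acid shortage, heme shortage or double-stranded RNA feed into the same step, known as the integrated stress response. Splicing, cleavage and phosphorylation are not read by counts per gene, which give messenger RNA only.

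Promoter sequences of some members hold elements through which these factors are known to act, and these are shown as background to the branches described below. RefSeq windows (GRCh38.p14) of 300 bases, from 250 before to 50 after a start, were found for 33 of the 35 members, in 46 windows. PDIA3 and PSPH had none in the table used. Both strands were searched, and each stretch is written 5′ to 3′ along the gene's strand with the element in capitals. The ER stress response element (ERSE), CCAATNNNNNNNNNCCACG, is bound by ATF6 together with the CCAAT factor NF-Y.
XBP1, chr22:28800598-28800626, minus strand: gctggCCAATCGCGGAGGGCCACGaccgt
HSPA5, chr9:125241386-125241414, minus strand: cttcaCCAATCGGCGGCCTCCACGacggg
HSP90B1, chr12:103930211-103930239, plus strand: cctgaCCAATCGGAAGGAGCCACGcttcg
PDIA6, chr2:10812848-10812876, minus strand: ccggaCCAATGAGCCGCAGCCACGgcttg
CRELD2, chr22:49918549-49918577, plus strand, reverse orientation: cctctCGTGGCGAACTCGGATTGGgccat
CALR, chr19:12938379-12938407, plus strand, reverse orientation: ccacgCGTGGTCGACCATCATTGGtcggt
CANX, chr5:179698773-179698801, plus strand: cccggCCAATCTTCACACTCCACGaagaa

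ERSE stood in the windows of 7 of the 33 matched members (21.2%), against 25 of 27305 genes (0.0916%) and 27 of 35116 windows (0.0769%) in the whole table. HSP90B1 had a second copy 89 bases before its start, in reverse orientation. A shorter relative, ERSE-II, in which ATTGG and CCACG are 1 base apart, stood in 3 members (9.09%), against 0.0696% of all genes and 0.0541% of all windows.
HERPUD1, chr16:56932016-56932044, plus strand: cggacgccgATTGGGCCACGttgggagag
SDF2L1, chr22:21642105-21642133, plus strand, reverse orientation: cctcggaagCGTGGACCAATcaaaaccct
HYOU1, chr11:119057371-119057399, minus strand, reverse orientation: gccccgtgaCGTGGTCCAATcccaggccg
HYOU1 held a second ERSE-II 79 bases before its start. The copy shown overlaps a match of HYOU1 to TGACGTGG, the core of the unfolded protein response element bound by XBP1, which stood in no other member's window. That core stood in 0.927% of all genes and 0.729% of all windows.

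The composite element of C/EBP and ATF factors (CARE), searched as TGATGNAA, is the one through which ATF4 is known to act. It stood in 4 members (12.1%), against 4.46% of all genes and 3.62% of all windows. Of the ATF4 targets, only ATF3, CHAC1 and ASNS held it.
ATF3, chr1:212565205-212565234, plus strand: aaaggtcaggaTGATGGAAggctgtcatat
CHAC1, chr15:40953251-40953280, plus strand, reverse orientation: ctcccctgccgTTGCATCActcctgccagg
ASNS, chr7:97872458-97872487, minus strand: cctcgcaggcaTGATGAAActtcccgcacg
HERPUD1, chr16:56931955-56931984, plus strand, reverse orientation: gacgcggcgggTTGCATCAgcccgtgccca
These are matches of letters and not measured binding sites, and a member without a match lacks only these letters in this window. The members were chosen for what they are known to do, so their shares beside the whole table are description and test nothing.

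Per length of exon, the 4 most abundant members were 3 chaperones and ATF4. Values here are RPKM, that is CPM per kilobase of all exon bases of the gene, as a mean over the 6 tumors with the lowest and highest. HSP90B1, the HSP90 family member of the ER, was at 160 RPKM (144 to 171). CANX, the membrane-bound lectin chaperone calnexin, followed at 156 RPKM (133 to 171). The transcription factor ATF4 reached 151 RPKM (109 to 182), and the soluble lectin chaperone CALR 130 RPKM (116 to 142). The ranges of these 4 overlapped from one neighbour to the next, whereas the disulfide isomerase PDIA4, at 85.8 RPKM (75.4 to 97.6), lay below CALR in every tumor.

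The low end held members of every role. The folding genes HYOU1, DNAJB11 and DNAJB9 were at 10.4, 9.28 and 5.43 RPKM, and the ligase gene SYVN1 at 5.21 RPKM. Of the sensors, ATF6 was at 10.2 RPKM, EIF2AK3 at 6.48 RPKM and ERN1 at 3.07 RPKM. ATF3, a stress-induced transcription factor, was at 1.25 RPKM (0.83 to 1.77). ASNS, which makes asparagine, was lowest at 0.609 RPKM (0.376 to 0.714), from only 21 to 83 counts per library. ASNS shares 1985 exon bases with ENSG00000284707 on the same strand, which itself held 4 to 11 counts, so ASNS reads may have been lost in counting and its level is uncertain. Of the 34 neighbouring pairs in the order of levels, 28 had overlapping ranges over the 6 tumors. Exon lengths count every annotated transcript, so a gene with long, little-used exons is listed too low.

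**Figure D1:**
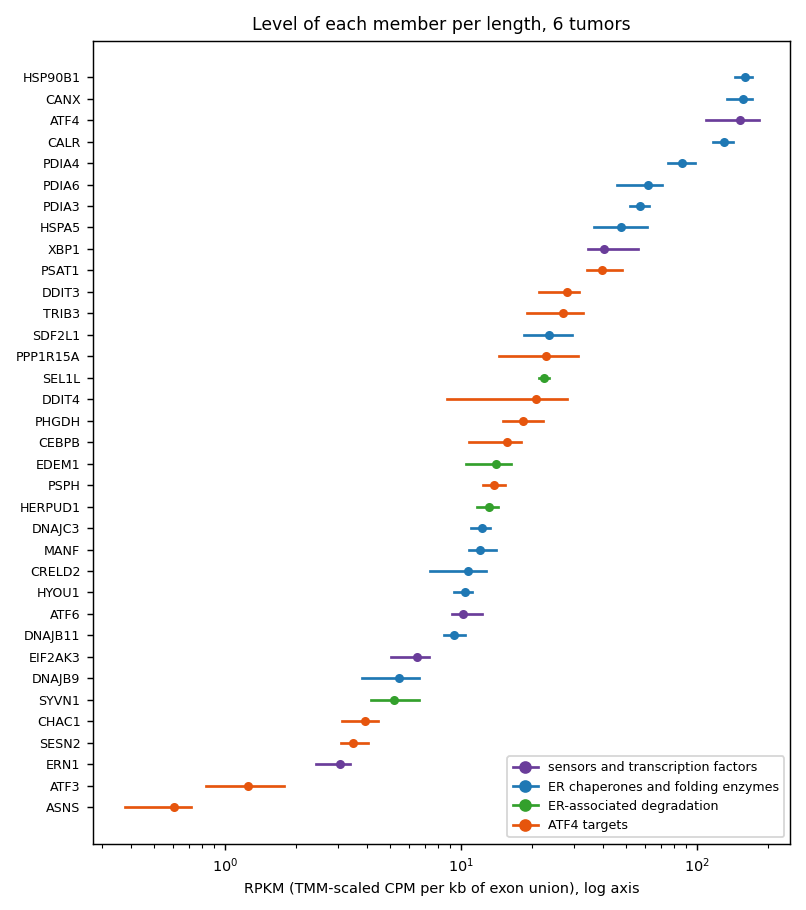
Level of each of the 35 genes in RPKM on a log axis, with the mean (point) and the lowest to highest of the 6 tumors (line), coloured by role. HSP90B1, CANX, ATF4 and CALR lie at 130 to 160 RPKM, and ERN1, ATF3 and ASNS at 3.07 or less.

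Treatment with anle138b was compared with no treatment in all 6 tumors. None of the 35 genes passed the test: 0 rose and 0 fell at an adjusted p under 0.05 (edgeR's quasi-likelihood test, adjusted over all 20423 genes), where 215 of all genes tested (1.05%) were called. At an unadjusted p under 0.05 there were 2 members, PPP1R15A and ATF3, and 1734 genes of the whole table. DESeq2 called 1 member, PPP1R15A, and 2.02% of all genes (412). Limma voom called 0 members and 1.17% of all genes (238). With a background of 1.05%, a count of 0 among 35 is near what the whole table holds.

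The intervals show how much was measurable. For 34 of the 35 genes the 95% interval of the log2 fold change lay within -1 and 1, that is within a 2-fold change in either direction. The same held for 16818 of all 20423 genes tested. Of the 14150 genes at or above the lowest member's average level, it held for 13504, so the members' count is near that of genes of their level. Among the members ATF3 was the exception, with an interval of 0.21 to 1.20. Members' log2 fold changes ran from -0.26 to 0.71 with a median of 0.05, beside a median of -0.01 over all genes tested. Their median absolute log2 fold change was 0.12, and that of all genes 0.13. By role, the median was 0.06 for sensors and transcription factors, 0.07 for chaperones and folding enzymes, 0.05 for ER-associated degradation and -0.14 for ATF4 targets. The last of these was 0.02 without anle138b tumor 2.

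**Figure D2:**
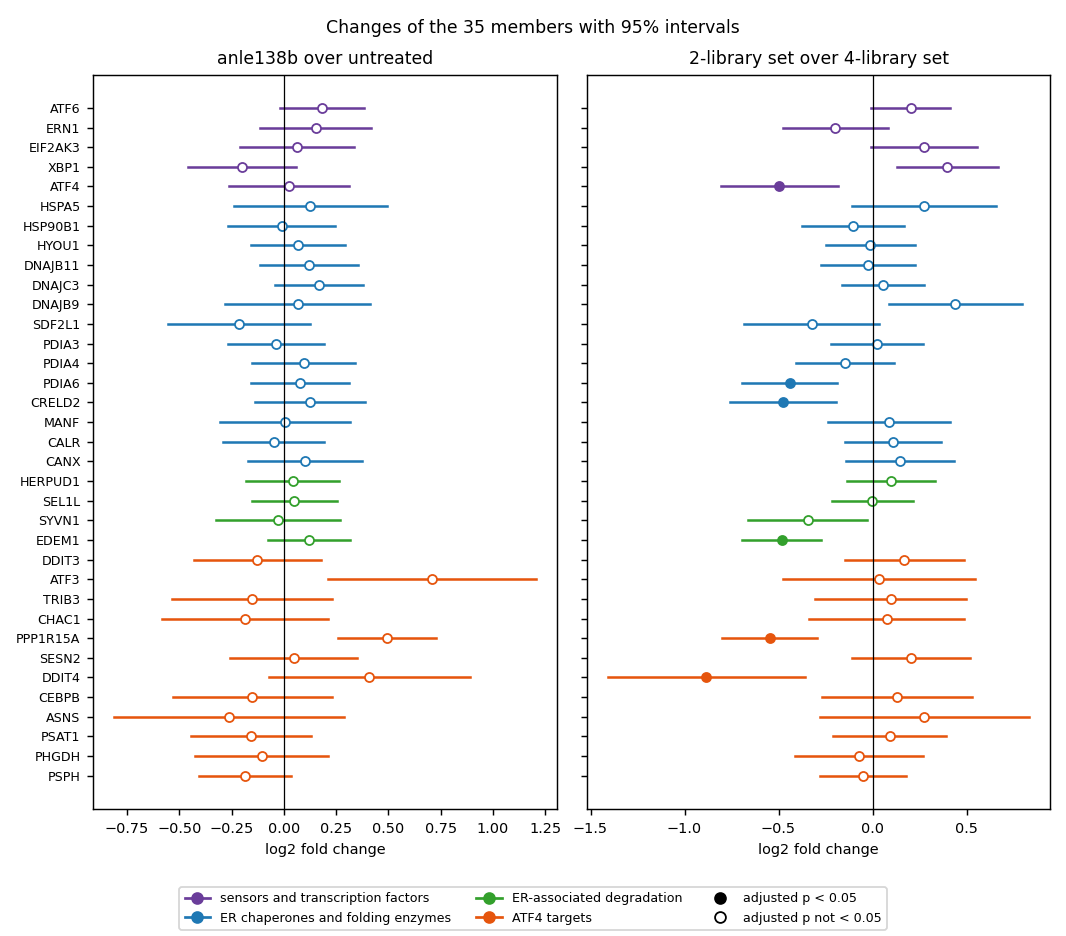
Log2 fold change of each gene with its 95% interval, for anle138b over untreated (left) and for the 2-library over the 4-library set (right), with filled points at an adjusted p under 0.05. No point is filled on the left, and 6 are filled on the right, all below 0.

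Within each naming set the tumors can also be set side by side. In 5 of the 35 genes (14.3%), ATF6, DNAJC3, EDEM1, ATF3 and PPP1R15A, every treated tumor lay above every untreated one of its set, against 9.52% of all genes tested. In 1 gene (2.86%), PSPH, every treated tumor lay below, against 10.4% of all genes. In a further 5 genes (14.3%), HSPA5, MANF, HERPUD1, CHAC1 and CEBPB, the tumors separated in opposite directions in the 2 sets, against 16.0% of all genes. The smaller set has 1 tumor per group, so its separation rests on 1 pair.

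Among the sensors and transcription factors, log2 fold changes by treatment ran from -0.20 to 0.18, and none passed the test. ATF6 measured 79.5, 82.1 and 96 CPM in anle138b tumors 1 to 3 and 73.4, 72.2 and 81.1 CPM in untreated tumors 1 to 3. Its treated tumors were higher within each set, by a log2 fold change of 0.18 ± 0.09 (SE, adjusted p = 0.66). XBP1 measured 110, 104 and 122 CPM with treatment and 119, 104 and 169 CPM without. The highest XBP1 value by far was that of untreated tumor 3, and the groups overlapped in the 4-library set (log2 fold change -0.20 ± 0.11 SE, adjusted p = 0.757).

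ATF4 measured 459, 359 and 324 CPM in the treated tumors and 407, 459 and 274 CPM in the untreated ones. The same high value of 459 CPM was thus seen in a treated and in an untreated tumor, and the log2 fold change was 0.03 ± 0.13 (SE, adjusted p = 0.988). Since ATF4 is controlled mainly in translation, its messenger RNA does not give its protein. ERN1 had a log2 fold change of 0.15 ± 0.12 (SE) and EIF2AK3 of 0.06 ± 0.12 (SE).

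Among the ER chaperones and folding enzymes, 10 of 14 (71.4%) had a positive and 4 a negative log2 fold change by treatment, from -0.21 to 0.17. Over all genes tested, 47.9% had a positive and 52.1% a negative value. HSPA5 encodes BiP, the main HSP70 of the ER, which also holds the sensors inactive. It measured 189, 210 and 177 CPM in the treated tumors and 143, 157 and 240 CPM in the untreated ones. In the 4-library set both treated tumors lay above both untreated ones, and in the 2-library set the treated tumor lay below. Over all tumors the log2 fold change was 0.13 ± 0.16 (SE, 95% interval -0.24 to 0.49, adjusted p = 0.944).

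MANF, a secreted protein induced by ER stress, showed the same arrangement as HSPA5 at a lower level, with 32.5, 27.4 and 26.3 CPM with treatment and 26.6, 25.9 and 33.3 CPM without. The nearest 4-library values, 27.4 and 26.6 CPM, were close, and the log2 fold change over all tumors was 0.00 ± 0.14 (SE). DNAJC3, a co-chaperone of BiP, was higher in every treated tumor within its set, with 70.4, 74.5 and 71.2 CPM against 61.6, 62.6 and 68.2 CPM. Its log2 fold change was 0.17 ± 0.09 (SE, adjusted p = 0.736).

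The remaining folding genes gave small values. The other J-domain co-chaperones were DNAJB11 with a log2 fold change of 0.12 ± 0.11 (SE) and DNAJB9 with 0.07 ± 0.15 (SE). Counts of DNAJB11 are uncertain, since its exons share 381 bases with TBCCD1 on the opposite strand, a gene with 342 to 866 counts, and 451 bases with ENSG00000283149 on the same strand. Reads of DNAJB9, at 146 counts in its lowest library, are uncertain because its exons share 183 bases with THAP5 and 99 with PNPLA8 on the opposite strand. The library kit does not mark strand. The disulfide isomerases PDIA3, PDIA4 and PDIA6 had values of -0.04, 0.09 and 0.08, each with an SE of 0.10 to 0.11. PDIA6 shares 1033 exon bases with ATP6V1C2 on the opposite strand, a gene with 41 to 75 counts, so its count is uncertain too. Shorter overlaps of other members on the opposite strand are not all listed here. The lectin chaperones CALR and CANX had -0.05 ± 0.11 and 0.10 ± 0.12 (SE). HSP90B1 was at -0.01 ± 0.11 and the HSP70-like exchange factor HYOU1 at 0.07 ± 0.10 (SE). CRELD2, a secreted ER stress protein, was at 0.13 ± 0.12, and SDF2L1, which joins BiP complexes, at -0.21 ± 0.15 (SE). The 7 genes with an ERSE shown above therefore spanned both signs of log2 fold change, and none passed the test.

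ER-associated degradation removes misfolded proteins through a membrane complex to the proteasome. EDEM1, which marks glycoproteins for removal, measured 110, 108 and 79.2 CPM with treatment and 101, 101 and 71.1 CPM without. Every treated tumor was higher within its set, by a log2 fold change of 0.12 ± 0.09 (SE, adjusted p = 0.851). HERPUD1, a membrane component, measured 68.9, 69.2 and 67.3 CPM against 65.4, 60.5 and 73.7 CPM, with opposite directions in the 2 sets. The ligase SYVN1 and its partner SEL1L had log2 fold changes of -0.03 ± 0.13 and 0.05 ± 0.09 (SE). SEL1L was the steadiest of all members, its highest tumor being 1.1 times its lowest. SYVN1 shares 398 exon bases with the abundant gene FAU on the same strand, so its count is uncertain.

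The ATF4 targets held the largest values in both directions, and 4 were positive and 8 (66.7%) negative, beside 52.1% negative among all genes tested. PPP1R15A encodes GADD34, which directs a phosphatase to eIF2α and so reverses the response. It measured 96.8, 86.7 and 63.7 CPM in treated tumors 1 to 3 and 60.1, 71.6 and 44.4 CPM in untreated tumors 1 to 3. All treated tumors were above the untreated ones of their set, while over both sets the groups overlapped.

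The log2 fold change of PPP1R15A was 0.49 ± 0.10 (SE, 95% interval 0.26 to 0.73), a 1.41-fold level, with an adjusted p of 0.0685 in edgeR. Over 15 alternative analyses the value stayed between 0.45 and 0.57 and was called in 6 of them, with adjusted p from 0.00269 to 1. DESeq2 gave an adjusted p of 0.00699, upper-quartile scaling 0.0321, scaling by library size alone 0.0269, the fit without a filter 0.00269, the stricter filter 0.0406 and the fit without anle138b tumor 2 0.028. The call thus depended on the analysis, while the difference was 0.48 in the 4-library and 0.52 in the 2-library set on the log2 scale.

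ATF3 measured 6.81, 4.71 and 7.15 CPM with treatment and 3.9, 4.37 and 3.35 CPM without. It was the only ATF4 target whose 3 treated tumors all lay above all 3 untreated ones, although the nearest values, 4.71 and 4.37 CPM, came from the same count of 59 reads in libraries of different depth. The log2 fold change was 0.71 ± 0.22 (SE, 1.63-fold, adjusted p = 0.263 in edgeR). It was called only without anle138b tumor 2, at 0.89 and an adjusted p of 0.0485. Both PPP1R15A and ATF3 are also known as rapidly induced genes. The list of 15 immediate early genes had 0 members called by treatment, a median log2 fold change of -0.12 and summed levels of 469 to 543 CPM in treated and 477 to 575 CPM in untreated tumors, and its part in these values was not tested.

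DDIT4, an inhibitor of mTORC1 that responds to stress and to low oxygen, measured 54.1, 48.1 and 38.7 CPM in treated and 40.1, 57.7 and 17.9 CPM in untreated tumors. Untreated tumor 3 was far below the other 5, and DDIT4 had the widest spread of all members, 3.22-fold from lowest to highest tumor. Its log2 fold change was 0.41 ± 0.21 (SE, adjusted p = 0.70). Of its 2058 exon bases, 847 are shared with DDIT4-AS1 on the opposite strand, which held 0 counts, so the count of DDIT4 is uncertain. SESN2, a stress-induced inhibitor of the same kinase, had 0.05 ± 0.14 (SE).

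DDIT3, TRIB3 and CHAC1 are commonly read as markers of an active PERK or ATF4 branch. DDIT3, the transcription factor CHOP, measured 39.2, 28 and 38.4 CPM with treatment and 34.6, 39.6 and 41 CPM without. TRIB3, a pseudokinase, measured 94.5, 65.2 and 105 CPM against 92.7, 112 and 88.3 CPM. CHAC1, which degrades glutathione, measured 7.11, 6.47 and 8.81 CPM against 8.95, 9.11 and 7.68 CPM. In all of these anle138b tumor 2 was lowest, and none had groups that separated over the 6 tumors. Log2 fold changes were -0.13 ± 0.14, -0.15 ± 0.17 and -0.19 ± 0.18 (SE), with adjusted p of 0.93, 0.936 and 0.912. DDIT3 shares 355 exon bases with MARS1 on the opposite strand, which held 2618 counts or more in every library, so its count is uncertain.

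CEBPB, a partner of ATF4 on CARE sequences, had a log2 fold change of -0.15 ± 0.17 (SE). It shares 231 exon bases with CEBPB-AS1 on the opposite strand, a gene with 34 to 122 counts, so its count is uncertain. Of the enzymes of amino acid synthesis, ASNS was at -0.26 ± 0.25 (SE) on the few reads given above. The serine pathway runs through PHGDH, PSAT1 and PSPH in this order, with log2 fold changes of -0.11 ± 0.14, -0.16 ± 0.13 and -0.19 ± 0.10 (SE). PSPH measured 36.4, 35.9 and 34.3 CPM with treatment and 39, 42.4 and 40 CPM without, so that all 3 treated tumors lay below all 3 untreated ones. This difference did not pass the test either (adjusted p = 0.70).

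**Figure D3:**
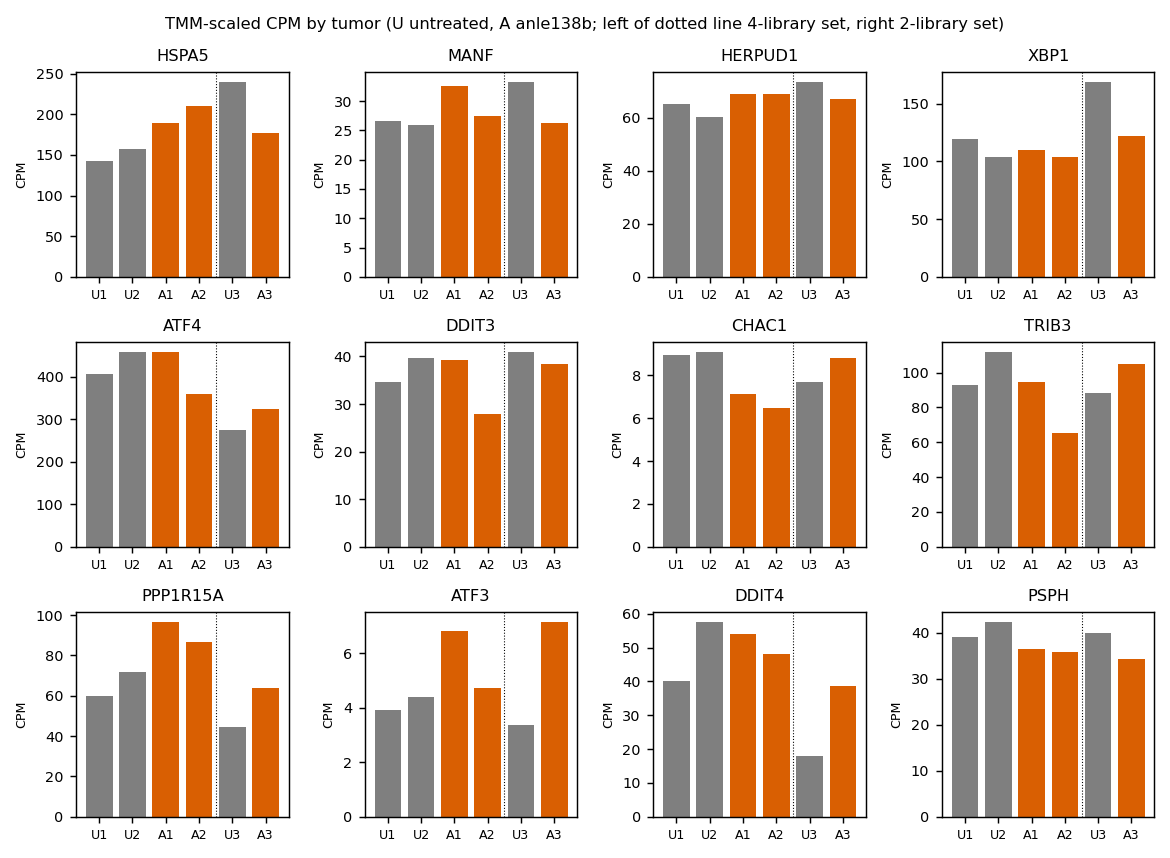
TMM-scaled CPM of 12 genes in each tumor, with untreated tumors in grey and anle138b tumors in orange, the 4-library set left and the 2-library set right of the dotted line. HSPA5 and MANF differ in opposite directions in the 2 sets, whereas PPP1R15A and ATF3 are higher in the treated tumors of both.

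More genes of the whole table differed between the naming sets (3157) than between the treatment groups (215). Of the members, 6 of 35 members (17.1%) were lower in the 2-library set and 0 were higher (edgeR, adjusted p under 0.05), against 7.14% lower and 8.32% higher among all genes tested. The 6 came from all 4 roles: ATF4, PDIA6, CRELD2, EDEM1, PPP1R15A and DDIT4. ATF4 averaged 299 CPM in the 2-library and 421 CPM in the 4-library set (log2 difference -0.50 ± 0.14 SE, adjusted p = 0.0405). EDEM1 averaged 75.1 and 105 CPM (-0.48 ± 0.09 SE, adjusted p = 0.00997). PPP1R15A averaged 54 and 78.8 CPM (-0.55 ± 0.11 SE, adjusted p = 0.0129).

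For EDEM1 both tumors of the 2-library set lay below all 4 others, as they also did for ATF4, PDIA6, CRELD2 and DDIT4. For PDIA6 the log2 difference was -0.44 ± 0.11 (SE, adjusted p = 0.0305) and for CRELD2 -0.48 ± 0.13 (SE, adjusted p = 0.0344). DDIT4 had the largest, -0.88 ± 0.23 (SE, adjusted p = 0.0338). XBP1 pointed the other way, at 0.40 ± 0.12 (SE) with an adjusted p of 0.0522, and was called in 8 of 13 alternatives. ERSE-bearing genes thus stood on both sides, with PDIA6 and CRELD2 called lower. XBP1, HSPA5, CALR and CANX had positive differences and HSP90B1 a negative one, and none of these differences passed the test.

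Without untreated tumor 3, 0 of the 6 differences were called, while the genes called over the whole table went from 3157 (15.5%) to 993 (4.76%). In that fit the log2 difference of DDIT4 was -0.39 (adjusted p = 0.338), of ATF4 -0.32 (0.379), of CRELD2 -0.27 (0.384), of PDIA6 -0.29 (0.327), of EDEM1 -0.44 (0.103) and of PPP1R15A -0.51 (0.0936). Without anle138b tumor 1, 2 members were called lower, EDEM1 and PPP1R15A. Without untreated tumor 1 or untreated tumor 2 there were 3 each, without anle138b tumor 3 there were 4, and without anle138b tumor 2 there were 8. Members called higher were 2 without anle138b tumor 3 (XBP1 and HSPA5), 1 without anle138b tumor 2 (XBP1) and 0 without each of the other 4. The share of all genes called in either direction moved too, from 15.5% to 10.1% without anle138b tumor 1, 13.1% and 13% without untreated tumors 1 and 2, 11.7% without anle138b tumor 3 and 27.2% without anle138b tumor 2. Only 1 tumor of each treatment is in the 2-library set, so a property of the set and one of these 2 tumors cannot be told apart.

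Genes of the response to low oxygen also differed between the naming sets. Of 14 tested genes of that list, 8 (57.1%) were lower and 1 (7.14%) was higher in the 2-library set. Among all genes tested, 7.14% were lower and 8.32% higher. The lower ones included the glucose transporter SLC2A1 (-1.19), the mitophagy receptor BNIP3 (-1.04) and the vessel growth factor VEGFA (-0.92). The list summed to 1870 to 2620 CPM in the 4-library and to 1710 to 1800 CPM in the 2-library set. In the same comparison, 4 of 12 cytosolic heat shock genes (33.3%) were lower. Fibroblast and pericyte markers summed to 451 to 562 CPM in the 4-library and 616 to 896 CPM in the 2-library set, with 3 of 12 (25%) higher. Of p53 targets 3 of 10 (30%) were higher, and of melanoma and melanocyte markers 4 of 11 (36.4%). Of immediate early genes 3 of 15 were lower and 1 higher, and of skeletal muscle genes 2 of 7 were lower and 1 higher. Their part in the members' differences was not tested.

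**Figure D4:**
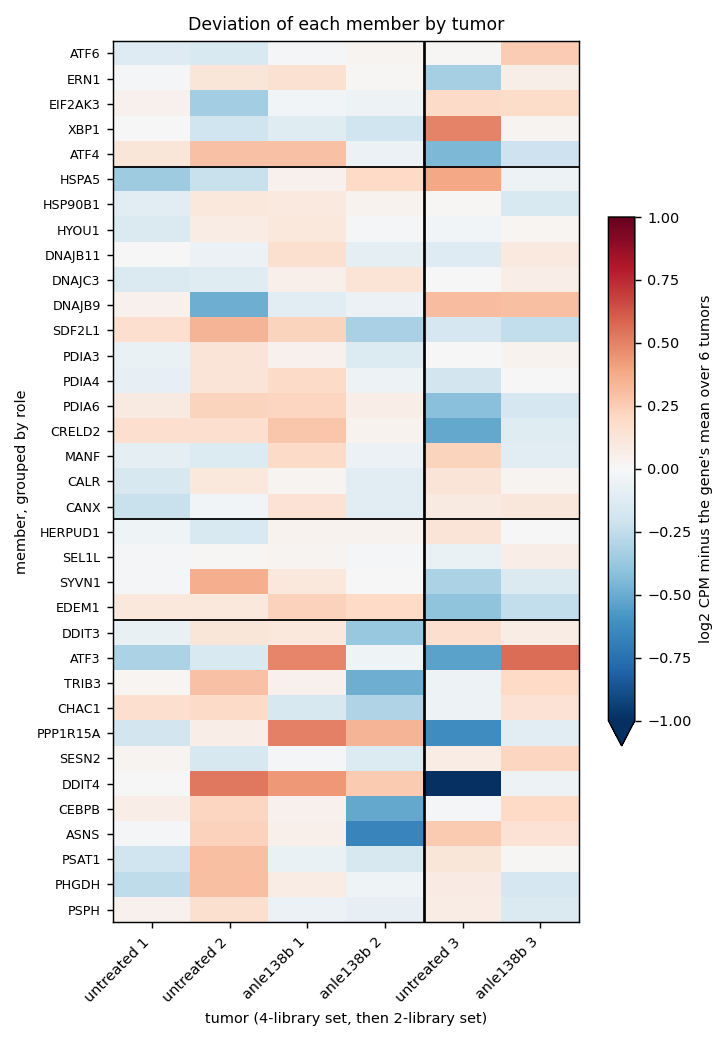
Deviation of log2 CPM from each gene's mean over the 6 tumors, genes grouped by role and tumors by naming set. DDIT4 in untreated tumor 3 lies below the end of the colour scale at -1, and PDIA6, CRELD2, EDEM1 and ATF4 are low in both tumors of the 2-library set.

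Tumor by tumor, untreated tumor 2 was the highest of the 6 for 13 of the 35 members (37.1%) and untreated tumor 3 the lowest for 12 (34.3%), beside 22.5% and 24.1% of all genes tested. Among the 12 ATF4 targets, 7 (58.3%) were highest in untreated tumor 2, beside 22.5% of all genes. In anle138b tumor 2, 5 of them (41.7%) were lowest, beside 14% of all genes and 20% of all 35 members. Anle138b tumor 1 was lowest for 0 of the 35 members and for 13.4% of all genes. These counts describe single libraries and carry no test.

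Whether treatment acted differently in the 2 naming sets was tested by an interaction term. Unadjusted p in edgeR was under 0.05 for 1345 of 20423 genes, among them 3 of the 35 members, HSPA5, DDIT4 and MANF. After adjustment edgeR called 0 genes, while DESeq2 called 31 genes and limma voom 0. No member was called by any of these tools. The smallest edgeR values among the members were those of HSPA5 (interaction -0.85 on the log2 scale, adjusted p = 0.595) and DDIT4 (1.05, adjusted p = 0.648). HSPA5 differed by 0.41 in the 4-library and by -0.44 in the 2-library set, and DDIT4 by 0.08 and 1.11. The opposite directions of HSPA5, MANF, HERPUD1, CHAC1 and CEBPB were therefore not shown to differ, with 2 residual degrees of freedom in this test.

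**Figure D5:**
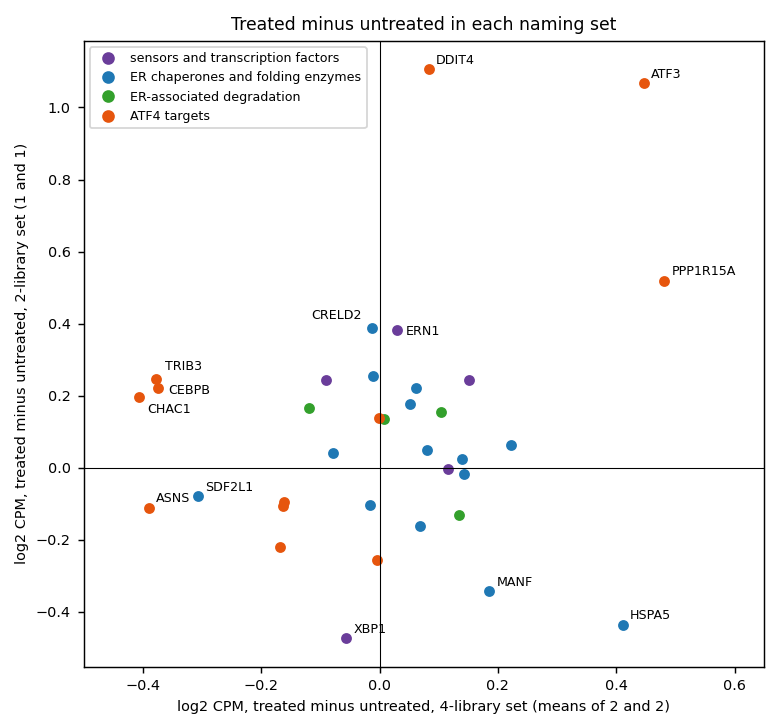
Difference in log2 CPM between treated and untreated tumors in the 4-library set (x axis, means of 2 and 2 tumors) and in the 2-library set (y axis, 1 and 1), 1 point per gene, coloured by role. PPP1R15A and ATF3 lie in the upper right, HSPA5 and MANF in the lower right, and TRIB3, CEBPB and CHAC1 in the upper left.

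The wider pathway was read from 7 further lists with 145 genes, of which 140 were tested. By treatment 1 of the 140 rose and 0 fell, at a median log2 fold change of 0.04. Over all 20423 genes tested, 134 rose and 81 fell (1.05% together), so 1 in 140 is near that share. The lists were chosen with earlier results of these data known, so a call in them is description and no independent support. The listed gene that rose was SLC1A4, a transporter of neutral amino acids placed among other ATF4 targets. It measured 318, 346 and 347 CPM in the treated tumors and 93.2, 104 and 78.6 CPM in the untreated ones. The groups were far apart in both sets, with a log2 fold change of 1.88 ± 0.12 (SE, 3.69-fold, adjusted p = 0.00011 in edgeR). It was called in 15 of 15 alternatives, with values from 1.75 to 1.96 and an adjusted p of at most 0.00992.

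No other gene of that list was called by treatment. Of its 30 tested genes, 29 were not called, and 17 (56.7%) had a negative value, near the 52.1% of all genes tested. NIBAN1 and ATF5 had the smallest p after SLC1A4, with log2 fold changes of -0.33 ± 0.09 and -0.41 ± 0.15 (SE, adjusted p = 0.181 and 0.384). SLC7A11 came next, at -0.25 ± 0.10 (SE, adjusted p = 0.463). SLC7A5 and SLC3A2, which form an amino acid exchanger, were at -0.34 ± 0.20 and -0.14 ± 0.16 (SE). Between the naming sets the same list had 8 genes (26.7%) lower in the 2-library set and 3 (10%) higher. Among all genes tested, 7.14% were lower and 8.32% higher. VEGFA, named next, is also in the low-oxygen list above. The lower ones were STC2 (-1.61), SLC7A5 (-1.20), VEGFA (-0.92), NIBAN1 (-0.71), SLC3A2 (-0.68), ATF5 (-0.68), SLC1A5 (-0.55) and TNFRSF10B (-0.54). The higher ones were ALDH1L2 (1.30), VLDLR (0.89) and SESN3 (0.88).

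No gene of the 6 remaining lists was called by treatment. Of 28 tested genes of ER folding and redox outside the members, the smallest p belonged to the peptidyl-prolyl isomerase FKBP9 (log2 fold change 0.36 ± 0.10 SE, adjusted p = 0.223) and the calcium-binding protein CALU (0.23 ± 0.10 SE, adjusted p = 0.511). Among 22 genes of the translocon and ER import they were SEC11C, a signal peptidase subunit, at -0.48 ± 0.12 (SE, adjusted p = 0.128), and SRP9, of the signal recognition particle, at 0.17 ± 0.10 (SE). Among 22 further genes of ER-associated degradation they were OS9 (0.17 ± 0.10 SE) and NGLY1 (-0.17 ± 0.10 SE). The 16 genes of eIF2 kinases, phosphatase and eIF2B ranged from -0.12 to 0.14, with EIF2B1 and EIF2S1, which encodes eIF2α, at 0.14 ± 0.11 and 0.13 ± 0.09 (SE). MBTPS1 and MBTPS2, the proteases that cleave ATF6, were at 0.12 ± 0.09 and -0.16 ± 0.15 (SE). Of 13 aminoacyl-tRNA synthetases, many of them known ATF4 targets, 10 (76.9%) had a positive value, beside 47.9% of all genes tested. YARS1 was at 0.22 ± 0.10 and CARS1 at 0.13 ± 0.10 (SE).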

How the data were processed

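Libraries were made from TRIzol-extracted RNA with a TruSeq v2 kit, per the labels' protocols. The authors deposited raw counts per gene, 1 file per tumor. The submitters' processing notes name bcl2fastq 2.17.1.14, STAR 2.5.2a, featureCounts 1.5.0-p1 and hg38. The sources used here do not give strand, overlap or multiple-mapping settings or the handling of mouse reads. Names, positions and exon lengths came from GENCODE 29 (GRCh38). Counts were tested with edgeR 4.0.16 in R 4.3.3 (filterByExpr with a minimum count of 10 and a total of 15, TMM, quasi-likelihood F test), with treatment and naming set as terms, p-values adjusted by Benjamini-Hochberg (threshold 0.05) and 3 residual degrees of freedom. The interaction was tested in the same way. DESeq2 1.42.0, limma voom 3.58.1, other scalings and filters, and leaving out each library were alternatives. Scripts were tested on simulated data. Replicate libraries differed by more than sampling noise. Nothing says how tumors relate to animals, so p-values cover only the variation among these samples, which may be technical. Replicate numbers follow listing order and pair nothing. Intervals come from the fit, and floors of 3 counts cover counting error only. The members and lists were chosen with earlier results of these data known. All 35 members are named, and from each further list the called genes or the 2 with the smallest p, with genes that differed between the sets named beside a member's result. For the other ATF4 targets, treatment values of NIBAN1, ATF5, SLC7A11, SLC7A5 and SLC3A2 were given in addition.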

Additional observations from a re-analysis of the deposited data

How the results depend on the processing

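With 3 tumors a group and 3 residual degrees of freedom, small changes could not be called, and the fit without a library that leaves 1 tumor in an arm assumes that it varies like the others. No paired analysis was possible because replicate numbers follow listing order and the labels pair no tumors. The count of genes changed by treatment, 215 as reported, was 754 without a filter, 412 with DESeq2, 9 without the naming set term, 92 in the 4-library set alone and 89 to 392 when each library was left out. Genes that differed between naming sets, 3157 as reported, numbered 6250 without a filter and 993 to 5960 with each library left out. The interaction count, 0 as reported, was 31 with DESeq2. The median of ATF4 targets ran from -0.1737 to 0.0203 with each library left out. The median of chaperones and folding enzymes moved by less than its spread in all 15 alternatives.

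Over all alternatives, 33 of 539 treatment values and 43 of 467 naming set values changed sign. None of these was called in either fit, and the reported value exceeded its standard error in 2 of each. In log2 units, treatment values that changed sign were ATF4 -0.0825, HSP90B1 0.0655, PDIA6 -0.0097, CRELD2 -0.0079 and SESN2 -0.0059 in the 4-library set alone. HSP90B1 was 0.0035 with DESeq2 size factors and 0.0034 with DESeq2. MANF was -0.016 with upper-quartile scaling, -0.0142 with library size alone and -0.0235 with limma voom. With each library left out, treatment values ran from -0.0446 to 0.199 for EIF2AK3, -0.081 to 0.1502 for ATF4, -0.059 to 0.076 for HSP90B1, -0.0733 to 0.2361 for DNAJB9, -0.0827 to 0.0298 for PDIA3, -0.0093 to 0.1437 for PDIA6, -0.0063 to 0.2289 for CRELD2, -0.1213 to 0.2003 for MANF and -0.1015 to 0.0216 for CALR. They ran from -0.0145 to 0.1421 for HERPUD1, -0.1271 to 0.1113 for SYVN1, -0.3581 to 0.0415 for TRIB3, -0.0041 to 0.1426 for SESN2, -0.3483 to 0.0443 for CEBPB and -0.2423 to 0.0427 for PHGDH.

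Naming set differences that changed sign with upper-quartile scaling were HYOU1 0.0425, DNAJB11 0.0279, SEL1L 0.0505 and PSPH 0.0021. With library size alone they were HYOU1 0.0669, DNAJB11 0.0516, SEL1L 0.0745, PHGDH 0.0101 and PSPH 0.0256. Without a filter they were HYOU1 0.0102 and SEL1L 0.0204, and with at least 50 counts in 3 libraries HYOU1 0.039, DNAJB11 0.025 and SEL1L 0.048. SEL1L was 0.0092 with DESeq2 size factors and with DESeq2. With each library left out, differences ran from -0.1554 to 0.6785 for HSPA5, -0.2042 to 0.0072 for HSP90B1, -0.0592 to 0.0191 for HYOU1, -0.1052 to 0.0672 for DNAJB11, -0.011 to 0.1367 for DNAJC3, -0.0421 to 0.0967 for PDIA3, -0.1751 to 0.3463 for MANF and -0.0232 to 0.228 for HERPUD1. They ran from -0.0659 to 0.0777 for SEL1L, -0.2982 to 0.3251 for ATF3, -0.2141 to 0.407 for TRIB3, -0.2329 to 0.3896 for CHAC1, -0.162 to 0.4239 for CEBPB, -0.2002 to 0.0397 for PHGDH and -0.3256 to 0.0791 for SLC1A4. The cause of these changes was not tested.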
